A study of Mus musculus with 4 samples.

Results

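Infarcted mouse hearts with prior wheel running were compared with infarcted hearts without it, nucleus by nucleus. The comparison holds 7833 of the 18771 nuclei of the study: 3123 from the library labelled sedentary with myocardial infarction and 4710 from the library labelled running for 16 weeks with myocardial infarction. A nucleus was counted when it held at least 300 genes, at most 20% mitochondrial UMIs (unique molecular identifiers, which count captured RNA molecules) and was not among the presumed doublets. All mice were wild type on a C57BL/6J background, of both sexes, and 8 weeks old at the start. The runners had a voluntary running wheel for 16 weeks and the controls stayed sedentary, with 6 mice in each. The sedentary and running libraries were made from 2 hearts each, collected at the end of the 16 weeks without surgery. The sedentary-infarct and running-infarct libraries were made from 4 hearts each, collected 2 weeks after surgical infarction. Ventricles of a group were pooled, frozen and minced together, and Hoechst-positive nuclei were sorted into a single 10x reaction, so each group is 1 library. Single hearts cannot be told apart in these data, no test between groups is possible, and every interval given here is a 95% interval that covers counting error only.

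After a myocardial infarction the heart replaces dead muscle with a collagen scar. Macrophages and lymphocytes enter the tissue, resident fibroblasts turn into matrix-producing cells, and the vessels that supply the surviving muscle are remodelled. The endocardium lines the heart's chambers and the mesothelium (epicardium) covers its surface. Lymphatic vessels drain fluid and immune cells, pericytes wrap capillaries, and smooth muscle cells form the wall of arteries and veins. Endurance exercise before injury is widely used in mice as a model of cardiac preconditioning.

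The infarct libraries held 26170995 and 29916572 UMIs, sedentary first, and the median nucleus held 4146 UMIs in the sedentary-infarct and 2841.5 in the running-infarct library. Median mitochondrial shares were 4.63% and 4.68%. Y-chromosome transcripts marked 30.3% of the deep nuclei (at least 5000 UMIs) of the sedentary-infarct library and 46.3% of those of the running-infarct library. The sedentary and running libraries without infarct gave 56.7% and 61.8%. The infarct libraries thus differed in their share of deep nuclei with such transcripts, though not alike in every class. Sedentary first, the shares were 18.1% and 36.9% in fibroblast-like, 27.9% and 22.4% in cardiomyocyte-like and 8.33% and 9.09% in smooth muscle-like nuclei. Every named gene's ratio was also computed with nuclei that held 2 or more UMIs of 4 Y-linked genes (Y-positive) kept apart from those with none (Y-negative). The Y-positive set numbered 606 and 961 nuclei and the Y-negative set 2247 and 3220; a shallow male nucleus can lack a Y-linked UMI, so the split is also one of depth and is not a split by sex. The infarct libraries shared 2 barcodes. Clusters were named for the type whose markers stood highest over the median of all clusters. In some, those markers were also among the 10 leading genes: Skap1 in the T cell-like cluster, Muc16 and Upk1b in the mesothelial-like, Reln and Mmrn1 in the lymphatic-like and Npr3 and Nrg1 in the larger endocardial-like. Other named clusters had none there, among them a fibroblast-like cluster led by Col11a1, a cardiomyocyte-like led by Nppa, a vascular led by Gja5 and the smaller endocardial-like led by Calcr. Clusters too shallow or too mixed to name held 17.7% and 19.2% of the nuclei.

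The running-infarct library held a smaller share of cardiomyocyte-like and fibroblast-like nuclei and a larger share of macrophage-like and lymphocyte-like nuclei than the sedentary-infarct library. Macrophage-like nuclei, the phagocytes of the tissue, made up 2.88% of the sedentary, 3.42% of the running, 7.46% of the sedentary-infarct and 13.6% of the running-infarct library, which put the infarct ratio at 1.82 (1.58 to 2.10). Without infarct the running-to-sedentary ratio was 1.19 (0.963 to 1.47), so the 2 intervals did not overlap. Fibroblast-like nuclei stood at 28.3%, 26.7%, 32.0% and 21.5%, a ratio of 0.672 (0.624 to 0.725) after infarct against 0.944 before it. Cardiomyocyte-like nuclei stood at 15.2%, 11.3%, 11.8% and 8.87%. Their ratio was 0.749 (0.656 to 0.855) after infarct and 0.740 (0.672 to 0.815) without it, so that class was lower in the running library by a like factor on both sides of the surgery. Vascular endothelial-like nuclei, mostly capillary, stood at 13.1%, 12.5%, 8.97% and 11.2%, with an infarct ratio of 1.25 (1.09 to 1.43). Shares of nuclei depend on the Hoechst sort and on depth: cardiomyocyte-like nuclei held a median of 9545 UMIs in the sedentary-infarct and 3156.5 in the running-infarct library, and among Y-positive nuclei alone their share ratio was 0.401. A shallow cluster whose best match was vascular endothelial (104 and 313 nuclei) stayed unnamed, and adding the shallow clusters to their best match gave a vascular ratio of 1.45.

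Both lymphocyte classes held larger shares of the running-infarct library. T cell-like nuclei numbered 10 and 16 without infarct and 50 and 126 with it (sedentary first), or 0.196%, 0.275%, 1.60% and 2.68%, an infarct ratio of 1.67 (1.21 to 2.31). B cell-like nuclei numbered 1, 22, 21 and 60, an infarct ratio of 1.89 (1.15 to 3.11). Both lymphocyte classes were thus rare without infarct and more frequent in the running-infarct than in the sedentary-infarct library. Endocardial-like nuclei stood at 8.27%, 8.96%, 7.46% and 9.09%, a ratio of 1.22 (1.05 to 1.42). Pericyte-like nuclei stood at 2.97%, 2.80%, 3.62% and 2.72%, a ratio of 0.751 (0.586 to 0.963). That pericyte ratio moved with the depth filter, to 0.500 among nuclei with at least 2000 UMIs and 0.433 with at least 800 genes, and to 0.258 under the mitochondrial limit of 5%, and the class was shallow in the running-infarct library, with a median of 1516.5 UMIs against 3149. Intervals spanned 1 for lymphatic endothelial-like nuclei (2.37% and 2.70%, ratio 1.14, 0.857 to 1.51), smooth muscle-like nuclei (0.929% and 1.02%, ratio 1.10, 0.694 to 1.74) and mesothelial-like nuclei (4.19% and 4.42%, ratio 1.05, 0.850 to 1.30). The lymphatic ratio was 2.01 among Y-positive nuclei and the mesothelial ratio 1.61, so both moved with the nuclei counted. Cycling nuclei, gathered in a cluster led by Top2a and Mki67, made up 0.993% and 1.46%, with a ratio of 1.48 (0.968 to 2.25) that moved to 2.74 with at least 800 genes and to 4.13 with at most 5% mitochondrial UMIs. Flt3, Wdfy4 and Tlr11, genes of dendritic cells, were also among the leading genes of that cluster. Schwann-like nuclei, the glia of nerves, numbered only 3 and 11, a ratio of 2.43 (0.679 to 8.71).

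**Figure D1:**
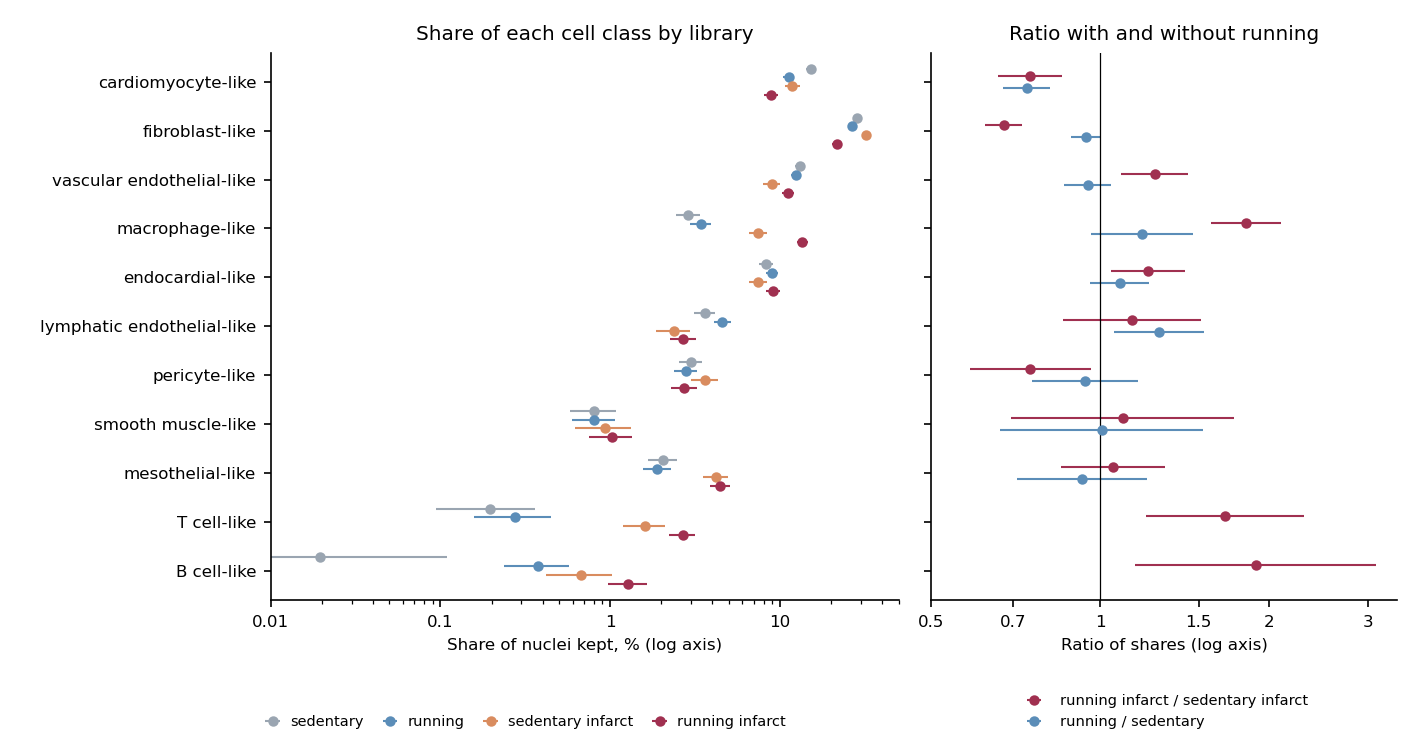
Left, the share of each cell class among the nuclei kept in each of the 4 libraries, in percent on a log axis; right, the ratio of shares with and without running, for infarcted and uninfarcted hearts, on a log axis. Points are single pooled libraries and bars are 95% counting intervals; the ratios of T cell-like and B cell-like nuclei without infarct are not drawn, since they rest on few nuclei. The macrophage-like infarct ratio of 1.82 lies right of its uninfarcted counterpart of 1.19, and the cardiomyocyte-like ratios of 0.749 and 0.740 lie together.

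Expression was compared within each class from UMIs summed over its nuclei and scaled to CPM (counts per 1000000 non-mitochondrial UMIs). A gene is called higher or lower when its ratio, running infarct over sedentary infarct, lay at least 1.5-fold from even, and is counted as measured when the 2 infarct libraries together held 100 or more of its UMIs in that class. Each set of 4 levels is in CPM and in the order sedentary, running, sedentary infarct and running infarct, and each ratio is the running infarct over the sedentary infarct with its interval in brackets. A summed level cannot tell more transcripts per nucleus from more nuclei with transcripts.

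Endocardial-like nuclei showed higher Nrg1, Fbxl7, Eln and Sncaip in the running-infarct library and lower Tgfb2, Myl2 and Ndufb9. Of 5435 genes measured, 2.39% were called higher and 4.54% lower. Among 22 measured endocardial identity genes 2 were higher and 3 lower, with a median log2 ratio of 0.06, against -0.06 for all genes of the class. Nrg1 (ENSMUSG00000062991), the growth factor neuregulin that endocardium and vessels release to cardiomyocytes, stood at 1206, 1784, 7104 and 12184 CPM. Both infarct libraries were above both uninfarcted ones, and the running-infarct library was the highest, at a ratio of 1.72 (1.67 to 1.76). Nrg1 is itself among the 10 leading genes of the cluster, so it helped to draw the class. When each nucleus was thinned to 1000 UMIs, which left out 5 and 30 nuclei, 119 of 228 (52.2%) and 279 of 398 (70.1%) still held a Nrg1 UMI. Unthinned, the shares were 63.9% and 75.5%, and thinned lymphatic-like nuclei gave 5.56% and 4.80% as background (12.2% and 23.6% unthinned). Thinned vascular endothelial-like nuclei gave 5.47% and 10.2%, so the share was higher in the running-infarct library there as well, at a lower level. Npr3, the clearance receptor for natriuretic peptides and a defining endocardial gene, stood at 1160, 1376, 1424 and 1399 CPM, a ratio of 0.982 (0.920 to 1.05). The interval of the class marker thus spanned 1 while that of Nrg1 did not.

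Fbxl7, which encodes an F-box protein of a ubiquitin ligase, stood at 702, 617, 2638 and 5157 CPM in endocardial-like nuclei, a ratio of 1.96 (1.87 to 2.04). Eln, which encodes elastin, the stretchable fibre of vessel walls and endocardium, stood at 417, 260, 545 and 1053 CPM, a ratio of 1.93 (1.76 to 2.13). Veph1 was scarce without infarct, at 2.71 and 4.71 CPM, and stood at 27.2 and 72.5 CPM after it, a ratio of 2.66 (1.76 to 4.16). These 3 genes were highest in the running-infarct library, and their log2 ratios lay between 0.69 and 3.70 in the Y-positive and the Y-negative nuclei. Sncaip, which encodes a synuclein-binding protein, stood at 683, 796, 1136 and 2025 CPM, a ratio of 1.78 (1.67 to 1.91). Nrp1, a co-receptor for VEGF and semaphorins and the 1 angiogenesis gene of 16 measured that was called higher (1 was lower, and the median log2 ratio was -0.10), stood at 656, 893, 1512 and 2295 CPM, a ratio of 1.52 (1.43 to 1.61). Tgfb2, which encodes a TGF-beta ligand, went the other way, at 37.3, 66.4, 119 and 51.2 CPM, a ratio of 0.431 (0.324 to 0.571), with 66% of its sedentary-infarct UMIs in 10 nuclei. Such shares in 10 nuclei are given throughout for the infarct library with the higher level. Among 13 endothelial-to-mesenchymal genes 1 was higher and 1 lower, and likewise among 26 genes of TGF-beta and BMP signalling. Of 12 flow-response genes 2 were lower and none higher, and none of 14 interferon-induced genes was called.

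Of 19 measured abundant cardiomyocyte transcripts 3 were called lower in endocardial-like nuclei and none higher. Myl2, the ventricular myosin light chain of cardiomyocytes, stood at 505, 409, 739 and 285 CPM, a ratio of 0.385 (0.343 to 0.432). Ndufb9 and Ndufa3, subunits of respiratory complex I, had ratios of 0.342 (0.253 to 0.458) and 0.326 (0.213 to 0.491), and Atp5k, a subunit of the ATP synthase, 0.376 (0.285 to 0.494). All 12 cardiomyocyte markers, Myl2 among them, were detected in endocardial-like nuclei of both infarct libraries, at a summed 3241 and 2243 CPM. The part of cardiomyocyte transcripts in these ratios was not tested. All 16 abundant fibroblast transcripts were likewise detected, at a summed 3682 and 3534 CPM.

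Lymphatic endothelial-like nuclei of the running-infarct library held more Stab2, Kif26b and Lmcd1 and less Timp3 and Zbtb16. The class numbered 74 and 127 nuclei, and of 2093 genes measured 3.82% were called higher and 3.39% lower. Of 16 measured lymphatic identity genes 1 was higher and none lower, with a median log2 ratio of -0.11. That gene, Stab2, a scavenger receptor for hyaluronan, stood at 48.6, 135, 85.5 and 338 CPM, a ratio of 3.95 (2.64 to 6.12). Its level was higher in each running library than in its sedentary counterpart, and 10 nuclei held 64% of its UMIs in the running-infarct library. Prox1, the transcription factor that sets lymphatic fate, stood at 950, 942, 1651 and 1234 CPM, a ratio of 0.747 (0.666 to 0.839). Ccl21a, the chemokine that draws dendritic cells and T cells into lymphatics, stood at 1050, 996, 830 and 603 CPM, a ratio of 0.726 (0.615 to 0.857). Neither reached 1.5-fold. After thinning, 47.2% (35.3% to 59.3%) and 30.4% (22.5% to 39.3%) of the lymphatic-like nuclei held a Ccl21a UMI. With 2 left out of each library, those intervals overlapped. Thinned vascular endothelial-like nuclei gave 3.28% and 1.38%, and the unthinned lymphatic-like shares were 73.0% and 55.9%.

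Kif26b (ENSMUSG00000026494), an unconventional kinesin, stood at 234, 173, 183 and 496 CPM in lymphatic-like nuclei, a ratio of 2.71 (2.04 to 3.65). Lmcd1, a LIM-domain co-regulator of transcription, stood at 180, 139, 128 and 307 CPM, a ratio of 2.4 (1.70 to 3.45). Both were highest in the running-infarct library and close to one another in the remaining 3. Sgcd (delta-sarcoglycan) had a ratio of 1.89 (1.55 to 2.33) and Ldlrad4, an inhibitor of TGF-beta signalling, 1.71 (1.47 to 2.00). Timp3, an inhibitor of matrix metalloproteinases, stood at 1046, 992, 970 and 435 CPM, a ratio of 0.448 (0.376 to 0.533), so it was low in the running-infarct library alone. Abcg2, an efflux transporter, stood at 380, 444, 278 and 158 CPM, a ratio of 0.570 (0.418 to 0.776). None of 12 angiogenesis genes was called, and 2 of 4 measured interferon-induced genes were higher, Rnf213 among them at 162 and 250 CPM. Mrc1, a scavenger receptor shared with macrophages, had a ratio of 1.57 (1.12 to 2.23) but a log2 ratio of -0.01 in Y-positive nuclei. Summed macrophage markers, Mrc1 among them, were 507 and 683 CPM, of which 10 and 12 of 12 were detected.

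Pericyte-like nuclei showed lower levels of some pericyte identity genes in the running-infarct library. Of 20 measured, 8 were called lower and none higher, with a median log2 ratio of -0.49, against 7.65% called higher and 6.44% lower among the 2065 genes measured in the class. Over the same genes the median was -0.71 among Y-positive nuclei alone and -0.22 among Y-negative ones. It shrank to -0.09 among nuclei with at least 800 genes and to -0.27 with every nucleus weighed the same, so its size moved with depth filtering and weighting. Abcc9, the sulfonylurea receptor of the pericyte's potassium channel, stood at 2375, 2338, 3044 and 1982 CPM, a ratio of 0.651 (0.596 to 0.712). The difference was larger in Y-positive nuclei, at a log2 ratio of -1.15, than in Y-negative nuclei, at -0.14, and was not tested between them. In thinned nuclei, 82.8% (73.9% to 89.7%) of 99 and 65.8% (54.3% to 76.1%) of 79 held an Abcc9 UMI. With 14 and 49 left out, those intervals overlapped. Thinned vascular endothelial-like nuclei gave 2.55% and 4.72%, and the unthinned pericyte-like shares were 85.8% and 71.1%. Rgs5, a regulator of G-protein signalling and the usual pericyte marker, stood at 938, 529, 1105 and 1023 CPM, a ratio of 0.926 (0.810 to 1.06). P2ry14, a receptor for UDP-sugars, stood at 162, 161, 188 and 76.8 CPM, a ratio of 0.408 (0.260 to 0.624).

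Beyond identity genes, Slc12a2, the sodium-potassium-chloride cotransporter, stood at 633, 498, 805 and 374 CPM in pericyte-like nuclei, a ratio of 0.465 (0.382 to 0.565). Tnfrsf21 (death receptor 6) had a ratio of 0.416 (0.294 to 0.581), and the transporters Abca6 and Abca8a 0.363 (0.232 to 0.555) and 0.493 (0.411 to 0.590). Both stood higher in fibroblast-like nuclei, by up to 3.47 and 2.97 times in an infarct library, and Abca8a was called lower in 5 of 9 classes. On the other side, Kif26b stood at 11.5, 14.1, 41.9 and 233 CPM, a ratio of 5.56 (3.34 to 9.79). Fibroblast-like nuclei held more Kif26b in both infarct libraries, by more than 5 times in the sedentary-infarct one. Smad7, an inhibitor of TGF-beta receptors, stood at 122, 101, 76.7 and 188 CPM, a ratio of 2.45 (1.61 to 3.81), and was 1 of 3 genes called higher among 11 of TGF-beta and BMP signalling, with none lower. Itpr2, an intracellular calcium channel, stood at 330, 292, 221 and 453 CPM, a ratio of 2.05 (1.59 to 2.66), and Myo6, a motor protein, had a ratio of 1.68 (1.24 to 2.30). All 4 of these genes were highest in the running-infarct library. Of 15 mural activation and matrix genes 1 was higher and none lower, with Col4a1 (basement-membrane collagen) at 451 and 555 CPM and Col8a1 at 526 and 684 CPM, neither called. Among 8 contractile genes 1 was higher, and Cacna1c, the L-type calcium channel, stood at 1672 and 1437 CPM. Summed vascular endothelial markers, all 12 detected, were 2939 and 4267 CPM in this class, and abundant macrophage transcripts, all 16 detected, 651 and 1028 CPM. Of 12 measured abundant fibroblast transcripts 1 was higher and 1 lower, with a median log2 ratio of 0.23. The part of these other cells' transcripts in the ratios was not tested.

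Smooth muscle-like nuclei numbered 29 and 48, which left 645 genes measured, with 8.99% called higher and 7.91% lower. Myh11, the smooth muscle myosin heavy chain, stood at 4237, 4103, 2935 and 2481 CPM, a ratio of 0.845 (0.742 to 0.962). Acta2, smooth muscle actin, stood at 2181, 2517, 1465 and 906 CPM, a ratio of 0.619 (0.505 to 0.756). Acta2 was thus lower in both infarct libraries than in both uninfarcted ones, and lowest in the running-infarct library. Both genes are among the 10 leading genes of the cluster. Thinned, 67.9% (47.6% to 84.1%) of 28 and 40.5% (25.6% to 56.7%) of 42 nuclei held an Acta2 UMI. With 1 and 6 left out, those intervals overlapped. Thinned vascular endothelial-like nuclei gave 0.730% and 0.787%, and the unthinned smooth muscle-like shares were 82.8% and 70.8%. Of 16 contractile genes 1 was higher and 1 lower, with a median log2 ratio of 0.14, and Prkg1, the cGMP-dependent kinase that relaxes smooth muscle, stood at 7427, 7624, 7477 and 8977 CPM. Among 14 activation and matrix genes 2 were higher and 2 lower. Eln stood at 295, 360, 914 and 1444 CPM, a ratio of 1.58 (1.29 to 1.94), and Col8a1 at 163, 257, 1153 and 759 CPM, a ratio of 0.658 (0.525 to 0.823). In the library with the higher level, 10 nuclei held 86% of the Eln and 92% of the Col8a1 UMIs. Gsn (gelsolin) and Dcn (decorin), abundant in fibroblasts, had ratios of 0.323 (0.228 to 0.452) and 0.381 (0.257 to 0.557), beside summed fibroblast markers of 3287 and 1829 CPM, of which 11 of 12 were detected in each library (Col6a6 at 0 in the first, Gfra1 in the second). Gsn and Dcn are among those markers, so the sum is not separate from them. What the fibroblast transcripts contributed was not tested.

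**Figure D2:**
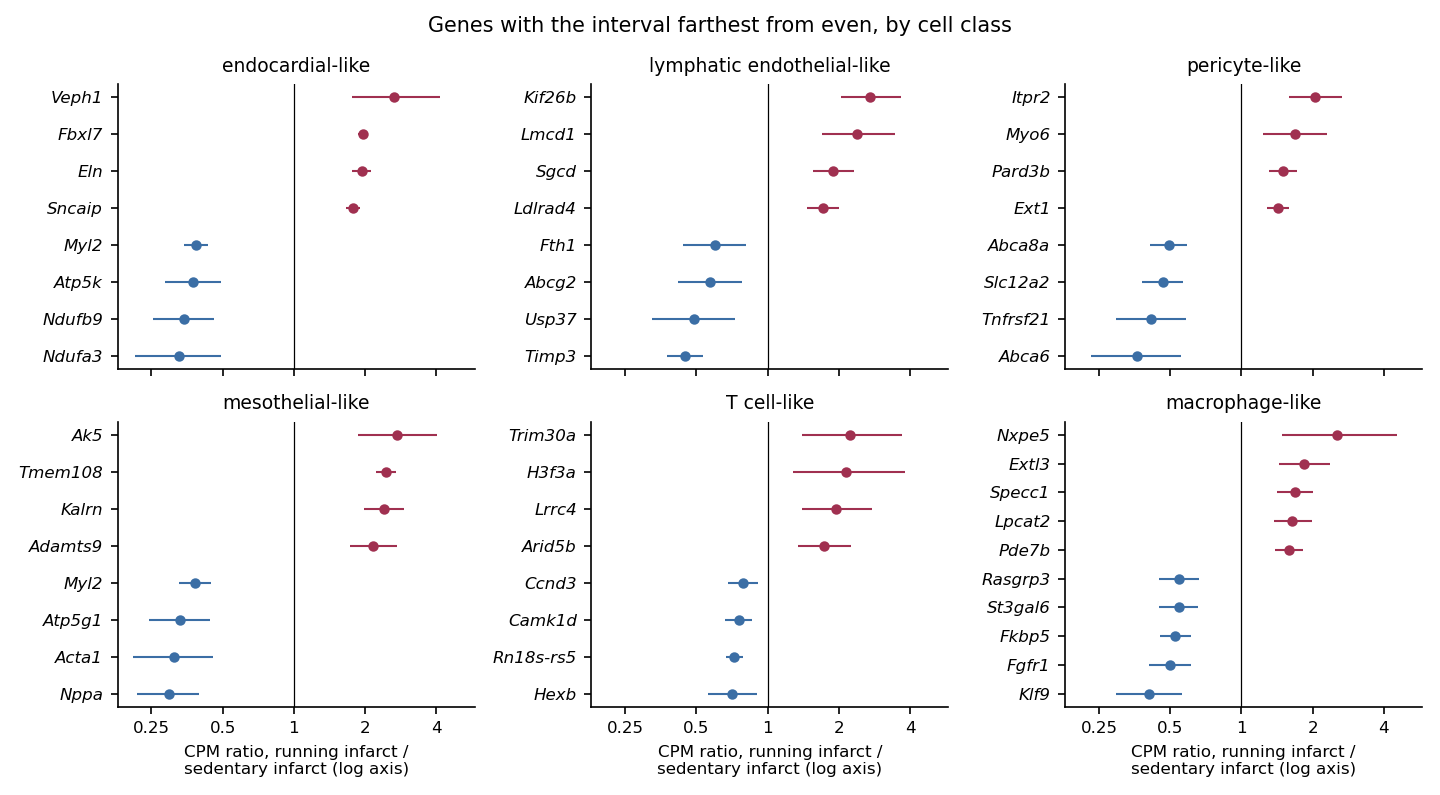
CPM ratio, running infarct over sedentary infarct, of the genes whose 95% interval lay farthest from even in 6 cell classes, on a log axis. Only genes that passed the limits for named genes, given with the processing, were ranked, so some genes in the text with farther intervals are not drawn. Red points are higher and blue points lower in the running-infarct library, and bars are the counting intervals. The pericyte-like genes Pard3b and Ext1 and the 4 lower T cell-like genes lie within 1.5-fold of even. Smooth muscle-like nuclei are not drawn, since fewer than 30 were found in the sedentary-infarct library.

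Mesothelial-like nuclei showed no called identity gene and differed in a small set of others. Of 21 measured identity genes none was called, with a median log2 ratio of -0.02, where 3.19% of 3704 measured genes were called higher and 4.24% lower. Wt1, the transcription factor of the epicardium, stood at 972, 999, 832 and 878 CPM, a ratio of 1.06 (0.948 to 1.18). Msln (mesothelin) stood at 391, 449, 508 and 429 CPM, a ratio of 0.843 (0.729 to 0.977). Thinned, 35.9% (27.7% to 44.9%) of 128 and 20.9% (15.4% to 27.4%) of 191 nuclei held a Msln UMI, with 3 and 17 left out. Vascular endothelial-like nuclei gave 0.730% and 1.97%, and the unthinned mesothelial-like shares were 75.6% and 53.8%. Fewer running-infarct nuclei thus held Msln, though its level was not called. For Wt1 the thinned shares were 50.8% and 49.7%. Tmem108 (ENSMUSG00000042757), a transmembrane protein, stood at 901, 615, 812 and 1982 CPM, a ratio of 2.44 (2.22 to 2.69), highest in the running-infarct library. Kalrn, a guanine nucleotide exchange factor, stood at 22.9, 48.0, 209 and 501 CPM, a ratio of 2.4 (1.99 to 2.92), so it was scarce without infarct. Adamts9, a secreted metalloproteinase, stood at 156, 118, 152 and 329 CPM, a ratio of 2.16 (1.72 to 2.73). Has1, a hyaluronan synthase and 1 of 2 genes called higher among 20 of epicardial activation and matrix (1 was lower), stood at 70.7, 36.0, 62.6 and 136 CPM, a ratio of 2.17 (1.52 to 3.14). Ak5, an adenylate kinase, had a ratio of 2.72 (1.88 to 4.04). Some of these genes stood higher in another class, by up to the following factors in an infarct library: Tmem108 3.74 times in endocardial-like nuclei, where it is a leading gene of a cluster, Kalrn 4.93 times in lymphatic-like and Adamts9 4.17 times in vascular endothelial-like nuclei. Summed endocardial markers, all 12 detected, were 3638 and 4954 CPM in mesothelial-like nuclei. Tmem108 is among those markers, at 812 and 1982 CPM, so the sum is not separate from it. The part of endocardial transcripts was not tested.

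Proliferation markers appeared in a few mesothelial-like nuclei of the running-infarct library. The 12 cycling markers summed to 25.0, 27.4, 50.7 and 270 CPM, and Top2a, Cenpe and Hmmr were at 0 in the sedentary-infarct library. Thinned to 1000 UMIs, 0 of 128 sedentary-infarct nuclei and 6 of 191 running-infarct nuclei (3.14%, 1.16% to 6.71%) held 2 or more such UMIs, with 3 and 17 nuclei left out. The first count allows a share of up to 2.84%, so the 2 intervals overlapped. In unthinned nuclei the shares were 6.11% and 5.77%, the reverse order, and cardiomyocyte-like nuclei gave 0.877% and 0.656% after thinning. Diaph3, a formin used in cell division, stood at 29.1, 63.4, 79.0 and 167 CPM, a ratio of 2.11 (1.54 to 2.94), but 10 nuclei held 76% of its UMIs and the log2 ratio was -0.01 when only the infarct libraries were clustered. Klf4, an immediate early transcription factor, had a ratio of 1.62 (1.14 to 2.33) over all nuclei and a log2 ratio of -0.16 in Y-negative nuclei. Several of the lower genes with the farthest intervals were cardiac, and 5 of 16 measured abundant cardiomyocyte transcripts and 4 of 13 abundant fibroblast transcripts were called lower. Nppa (atrial natriuretic peptide) stood at 6.24, 3.43, 231 and 68.3 CPM, a ratio of 0.296 (0.218 to 0.397), and Acta1 (skeletal actin) at 8.32, 15.4, 136 and 42.0 CPM, a ratio of 0.310 (0.208 to 0.454). Both were nearly confined to the infarct libraries in this class and higher in the sedentary one. Myl2 and Atp5g1 had ratios of 0.382 (0.326 to 0.446) and 0.329 (0.243 to 0.440). Summed cardiomyocyte markers, Myl2 among them and all 12 detected, were 3146 and 1985 CPM, and their part was not tested.

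Among T cell-like nuclei 3 interferon-induced genes were higher in the running-infarct library and few T cell genes differed. Of 1704 measured genes 7.22% were called higher and 4.75% lower. Of 12 measured T cell genes 2 were lower and none higher, with a median log2 ratio of -0.22. Skap1, an adaptor of T cell receptor signalling, stood at 1010, 2126, 2221 and 2164 CPM, a ratio of 0.974 (0.871 to 1.09), and Tox, a transcription factor of activated and exhausted T cells, at 313, 641, 621 and 912 CPM, a ratio of 1.47 (1.20 to 1.80), just short of the call. Of 4 measured interferon-induced genes 3 were called higher, with a median log2 ratio of 0.73. Among them Trim30a stood at 144, 219, 108 and 239 CPM, a ratio of 2.22 (1.40 to 3.70), and Rnf213, an antiviral ubiquitin ligase, at 144, 304, 152 and 257 CPM, a ratio of 1.69 (1.13 to 2.61). Both lay near the level of the running library without infarct, which rests on 16 nuclei. Arid5b, a chromatin co-regulator, had a ratio of 1.73 (1.34 to 2.26) and H3f3a, a variant histone, 2.15 (1.28 to 3.79). The cytotoxic genes Txk and Klrk1 had ratios of 0.887 (0.599 to 1.33) and 0.781 (0.546 to 1.13), with 92% of the Klrk1 UMIs in 10 nuclei.

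Transcripts of other cells also differed among the T cell-like nuclei. Ttn (titin) stood at 481, 658, 1389 and 393 CPM, a ratio of 0.283 (0.233 to 0.342), and Ryr2, the sarcoplasmic calcium release channel, had a ratio of 0.385 (0.263 to 0.563). Summed cardiomyocyte markers, Ttn and Ryr2 among them and all 12 detected, were 4917 and 2702 CPM. Fn1 (fibronectin) had a ratio of 3.08 (1.92 to 5.19) and Postn (periostin) 2.20 (1.51 to 3.31), while Gsn had 0.455 (0.359 to 0.578), so fibroblast transcripts did not move together. The Fn1 log2 ratio was -0.71 with at most 5% mitochondrial UMIs and -0.42 with at least 800 genes. The mitochondrial limit also turned the median over abundant cardiomyocyte transcripts to 0.29.

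B cell-like nuclei held more of several B cell genes in the running-infarct library. The class numbered 21 and 60, and of 339 measured genes 19.5% were called higher and 13.9% lower. Of 12 measured B cell genes 5 were higher and none lower, with a median log2 ratio of 0.57, which was 1.74 among Y-positive nuclei and 0.08 among Y-negative ones. Bank1, a scaffold of B cell receptor signalling, stood at 2892 CPM in the running library and at 1733 and 4205 CPM in the infarct libraries, a ratio of 2.43 (2.05 to 2.88). The sedentary library had 1 such nucleus. Bach2, a repressor that holds B cells short of plasma cell fate, stood at 1456 and 3236 CPM, a ratio of 2.22 (1.85 to 2.68), and Btla, an inhibitory receptor, at 378 and 895 CPM, a ratio of 2.37 (1.65 to 3.46). The share of thinned nuclei with a Bank1 UMI was nearly level, at 85.0% of 20 and 88.4% of 43 (1 and 17 left out), against 1.09% and 0.394% of vascular endothelial-like nuclei, and unthinned shares were 95.2% and 95%. Postn, at 765 and 268 CPM, and Rora, at 2599 and 1290 CPM, were lower, with 99% or more of their UMIs in 10 nuclei.

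In macrophage-like nuclei, some genes of resident macrophages were lower in the running-infarct library, where the class itself was larger. Of 20 measured resident macrophage genes 6 were called lower and none higher, with a median log2 ratio of -0.26, against 2.68% higher and 3.56% lower among 5113 measured genes. Lyve1, a hyaluronan receptor of resident macrophages, stood at 242, 236, 81.4 and 46.3 CPM, a ratio of 0.568 (0.401 to 0.807). It was high in both uninfarcted libraries and lowest in the running-infarct library. In the sedentary-infarct library 10 nuclei held 55% of its UMIs, and thinned shares of nuclei with a Lyve1 UMI were 5.61% (2.93% to 9.59%) and 4.37% (2.79% to 6.49%), with 19 and 113 left out, so those intervals overlapped. Unthinned, the shares were 15.5% and 7.67%, and thinned vascular endothelial-like nuclei gave 1.46% and 0.984%. The median over the resident genes shrank to -0.07 in Y-negative nuclei and to -0.09 over those with at least 500 UMIs. Fgfr1, a fibroblast growth factor receptor, stood at 248, 261, 243 and 121 CPM, a ratio of 0.498 (0.406 to 0.612). F13a1, coagulation factor XIII and a leading gene of the cluster, stood at 4896, 4501, 3273 and 2240 CPM, a ratio of 0.684 (0.65 to 0.72), not called. Ccr2, the chemokine receptor of monocyte-derived macrophages, stood at 31.6, 51.9, 245 and 222 CPM, a ratio of 0.904 (0.757 to 1.08). Ccr2 was thus high in both infarct libraries at levels whose ratio did not exclude 1.

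Trem2, the lipid receptor of phagocytic macrophages, stood at 22.6, 23.5, 80.1 and 51.3 CPM in macrophage-like nuclei, a ratio of 0.640 (0.456 to 0.903). It was 1 of 2 genes called lower among 19 lipid-associated and phagocytic genes, with none higher. Spp1 (osteopontin) gave only 13 and 17 UMIs. Fn1, of the monocyte-derived list, stood at 36.1, 28.5, 168 and 266 CPM, a ratio of 1.58 (1.30 to 1.94), but its log2 ratio was -0.49 in Y-positive nuclei. Extl3, a glycosyltransferase of heparan sulfate, stood at 61.0, 68.7, 106 and 196 CPM, a ratio of 1.85 (1.45 to 2.37), and Pde7b, a cAMP phosphodiesterase, at 183, 310, 363 and 575 CPM, a ratio of 1.58 (1.39 to 1.81). Higher alongside were Specc1 (ratio 1.68, 1.41 to 2.01), Lpcat2, an enzyme of platelet-activating factor synthesis (1.64, 1.37 to 1.98), and Nxpe5 (2.53, 1.49 to 4.54). The antigen presentation list had 1 gene higher of 11 and none lower. Cd74, the invariant chain of MHC class II, stood at 332, 407, 372 and 310 CPM. St3gal6 and Rasgrp3 had ratios of 0.543 (0.447 to 0.659) and 0.545 (0.446 to 0.665). Fibroblast markers, all 12 detected, summed to 1862 and 1586 CPM here, and Col8a1 (ratio 0.565) turned to a log2 ratio of 0.39 in Y-positive nuclei.

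Fibroblast-like nuclei, 1000 in the sedentary-infarct and 1014 in the running-infarct library, made up a smaller share of the latter, and more of them lay there in a cluster that was nearly absent without infarct. That cluster, led by Col11a1, Col12a1 and Cthrc1, held 27, 31, 358 and 597 nuclei, or 0.528%, 0.532%, 11.5% and 12.7% of each library. Within the fibroblast-like class it made up 35.8% in the sedentary-infarct and 58.9% in the running-infarct library. The cluster led by Fgf10, Inmt and Col6a6, which held 71.3% and 68.1% of the class without infarct, made up 33.2% and 16.2% of it after infarct. As a share of whole libraries, the Fgf10-led cluster stood at 10.6% and 3.48% after infarct, while the Col12a1-led cluster lay at 11.5% and 12.7%. Since the 2 infarct libraries fill the clusters unequally, several ratios are also given within the Col12a1-led cluster and outside it, a split chosen after the data were seen.

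Some genes of activation and matrix were higher over the whole class, while most members of those lists were not called. Of 9720 measured genes 2.21% were called higher and 2% lower. Of 20 myofibroblast activation genes 6 were higher and none lower, with a median log2 ratio of 0.27 (0.02 within the Col12a1-led cluster and 0.37 outside it). Of 27 collagen and matrix genes 4 were higher and none lower, with a median log2 ratio of 0.04 against -0.02 for all genes of the class, and of 17 matrifibrocyte and cartilage-type genes 3 were higher. Col3a1, the fibrillar collagen of young scar, stood at 732, 629, 1103 and 1752 CPM, a ratio of 1.59 (1.53 to 1.65), with log2 ratios of 0.38 within the cluster and 0.84 outside. Comp, a cartilage matrix protein that assembles collagen, stood at 12.9, 25.4, 163 and 280 CPM, a ratio of 1.72 (1.57 to 1.89), with log2 ratios of 0.39 and 0.95. Kif26b, barely present without infarct, stood at 4.10, 4.54, 344 and 582 CPM, a ratio of 1.69 (1.58 to 1.80), with log2 ratios of 0.35 and 0.44. These genes were highest in the running-infarct library, by more over the class than within its scar-type cluster. Adam12, a metalloprotease of activated fibroblasts, and Ncam1, an adhesion molecule, passed 1.5-fold also within the cluster, at log2 ratios of 0.73 and 0.77.

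Other scar genes of the fibroblast-like class lay within 1.5-fold of even. Postn, the matricellular protein of activated fibroblasts, stood at 145, 146, 1223 and 999 CPM, a ratio of 0.817 (0.784 to 0.851), with log2 ratios of -0.65 within the Col12a1-led cluster and -0.04 outside it. Col1a1, the main scar collagen, stood at 127, 132, 339 and 397 CPM, a ratio of 1.17 (1.09 to 1.26), and Cthrc1, a secreted marker of reparative fibroblasts, at 1.17, 1.51, 54.6 and 61.1 CPM, a ratio of 1.12 (0.933 to 1.34). So Postn was lower by over 1.5-fold inside the scar-type cluster, where Adam12 and Ncam1 were higher. Homeostatic fibroblast genes had 5 lower and none higher of 27, with a median log2 ratio of -0.16. Inmt, a methyltransferase, stood at 47.4, 95.6, 41.4 and 17.9 CPM, a ratio of 0.431 (0.323 to 0.571), and leads the Fgf10-led cluster. Bmp4, a growth factor, had a ratio of 0.534 (0.453 to 0.628), and Sparcl1, a matricellular protein, 0.368 (0.293 to 0.460) with log2 ratios of -1.19 within the cluster and -1.26 outside. Gria4, a glutamate receptor subunit, and Sntg1, a syntrophin, were higher at 3.01 (2.37 to 3.86) and 2.50 (2.28 to 2.76). Of 19 interferon-induced genes 3 were higher and none lower, Ifit1 among them at 7.77 and 18.9 CPM. Summed macrophage markers, all 12 detected, were 451 and 549 CPM in this class. Of 13 measured abundant macrophage transcripts 6 were called higher and none lower, with a median log2 ratio of 0.55, and their part in these ratios was not tested.

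**Figure D3:**
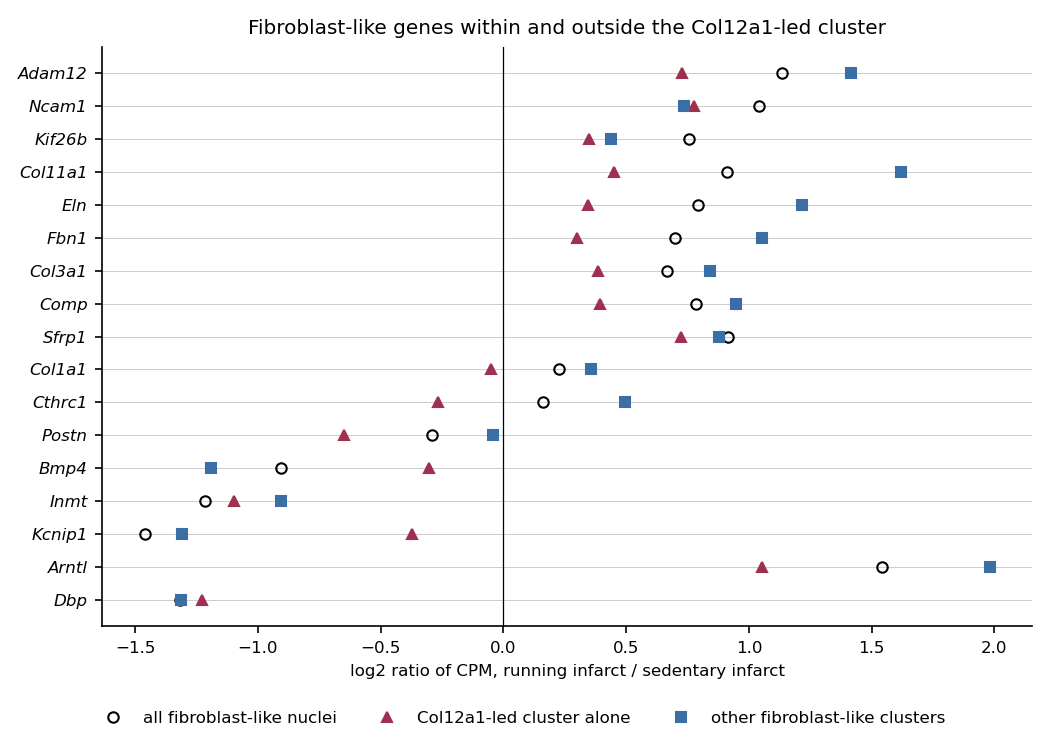
Log2 ratio of CPM, running infarct over sedentary infarct, for fibroblast-like genes over all fibroblast-like nuclei (open circles), within the Col12a1-led cluster alone (triangles) and in the other fibroblast-like clusters (squares). Postn lies at -0.65 within that cluster and -0.04 outside it, and Col3a1 at 0.38 and 0.84.

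In vascular endothelial-like nuclei, 5 arterial and 3 flow-response genes were lower and no angiogenesis gene was called. Of 4853 measured genes 2.35% were called higher and 3.36% lower. Of 17 arterial genes 5 were lower and 1 higher, with a median log2 ratio of -0.32, and of 12 flow-response and vasomotor genes 3 were lower and 1 higher, with a median of -0.45. The flow-response median was 0.07 in Y-positive nuclei and -0.15 over genes with at least 500 UMIs, so its direction and size were not stable. The cluster with Gja5 and Sema3g in the lead, both arterial genes, made up 12.5% and 9.3% of the class, and without it the arterial median was -0.29. The angiogenesis and tip-cell list had 18 measured genes. Flt1, a decoy receptor for VEGF, stood at 2588, 2236, 2486 and 2042 CPM, a ratio of 0.821 (0.777 to 0.869). Gja5, an arterial gap-junction protein, stood at 153, 138, 53.4 and 38.0 CPM, a ratio of 0.712 (0.472 to 1.08), and Plvap, of the fenestral diaphragm, at 13.4, 19.7, 61.4 and 61.0 CPM, a ratio of 0.994 (0.698 to 1.42). Gja5 was thus lower and Plvap higher in both infarct libraries than in both uninfarcted ones, and the intervals of both ratios spanned 1. Eln stood at 946, 891, 1059 and 688 CPM, a ratio of 0.65 (0.593 to 0.712), the opposite direction to endocardial-like nuclei. Nedd9, a focal-adhesion scaffold, and Vcl (vinculin) were higher at 1.77 (1.52 to 2.06) and 1.86 (1.52 to 2.30), as were Dlg2 at 1.98 (1.69 to 2.31), Dapk2 at 2.09 (1.61 to 2.73) and Tspan18 at 1.81 (1.51 to 2.18). Ahr, the aryl hydrocarbon receptor, was lower at 0.436 (0.316 to 0.598).

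Cardiomyocyte-like nuclei came from 2 clusters in different proportions. The deeper cluster held 80.8% of the class in the sedentary-infarct and 49.5% in the running-infarct library, and a shallow cluster with a median of 1243 UMIs, led by Nppa, Chchd10 and Mb, held the rest. Of 6909 measured genes 3.76% were called higher and 3.3% lower. The sarcomere list had no gene called of 22, the calcium handling list 1 lower of 20, the glycolysis list 1 higher and 1 lower of 22, and the fatty acid list 1 higher and 2 lower of 26. Of 16 stress and fetal cardiac genes 1 was higher and none lower, with a median log2 ratio of 0.24. Nppa stood at 14.7, 19.4, 317 and 232 CPM, a ratio of 0.732 (0.656 to 0.815), and leads the shallow cluster. Nppb, the B-type natriuretic peptide, stood at 38.8, 37.7, 213 and 252 CPM, a ratio of 1.18 (1.06 to 1.33), and Ankrd1, a stress-responsive titin-binding protein, at 211, 493, 2122 and 1846 CPM, a ratio of 0.870 (0.836 to 0.905). These 3 genes were higher in both infarct libraries than in both uninfarcted ones, and the infarct libraries lay within 1.5-fold of each other. Myh7, the slow myosin heavy chain, stood at 1324, 1526, 1485 and 1758 CPM, so it did not separate the libraries that way.

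Ankrd23, a titin-binding ankyrin repeat protein, stood at 122, 44.8, 94.5 and 216 CPM in cardiomyocyte-like nuclei, a ratio of 2.29 (1.98 to 2.65). Adam19, a metalloprotease, stood at 200, 118, 111 and 246 CPM, a ratio of 2.22 (1.94 to 2.54). In both genes the running-infarct level was near or above the sedentary level without infarct, and the running and sedentary-infarct levels were below it. Scube2 and Colq, the collagen tail of acetylcholinesterase, were higher at 2.65 (1.96 to 3.60) and 2.65 (1.94 to 3.64). Ces1d, a carboxylesterase of lipid breakdown, stood at 494, 491, 338 and 160 CPM, a ratio of 0.473 (0.418 to 0.535), lowest in the running-infarct library. Clcn1, a muscle chloride channel, had a ratio of 0.455 (0.321 to 0.634). Chchd10, a mitochondrial protein, had a ratio of 2.05 (1.67 to 2.51), but without the shallow cluster its log2 ratio fell short of the call at 0.38, and the median over 21 respiratory-chain genes, 0.24 with 2 higher, became -0.06. Col3a1 had a ratio of 2.28 (1.97 to 2.63) and Bgn (biglycan) 1.85 (1.52 to 2.26) in these nuclei, and without the shallow cluster the log2 ratio of Bgn was 0.29. Abundant fibroblast transcripts, all 16 detected, summed to 624, 779, 937 and 1540 CPM, and their part in those collagen values was not tested. Col8a1, at 1.96, had a log2 ratio of -0.26 in Y-positive nuclei.

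**Figure D4:**
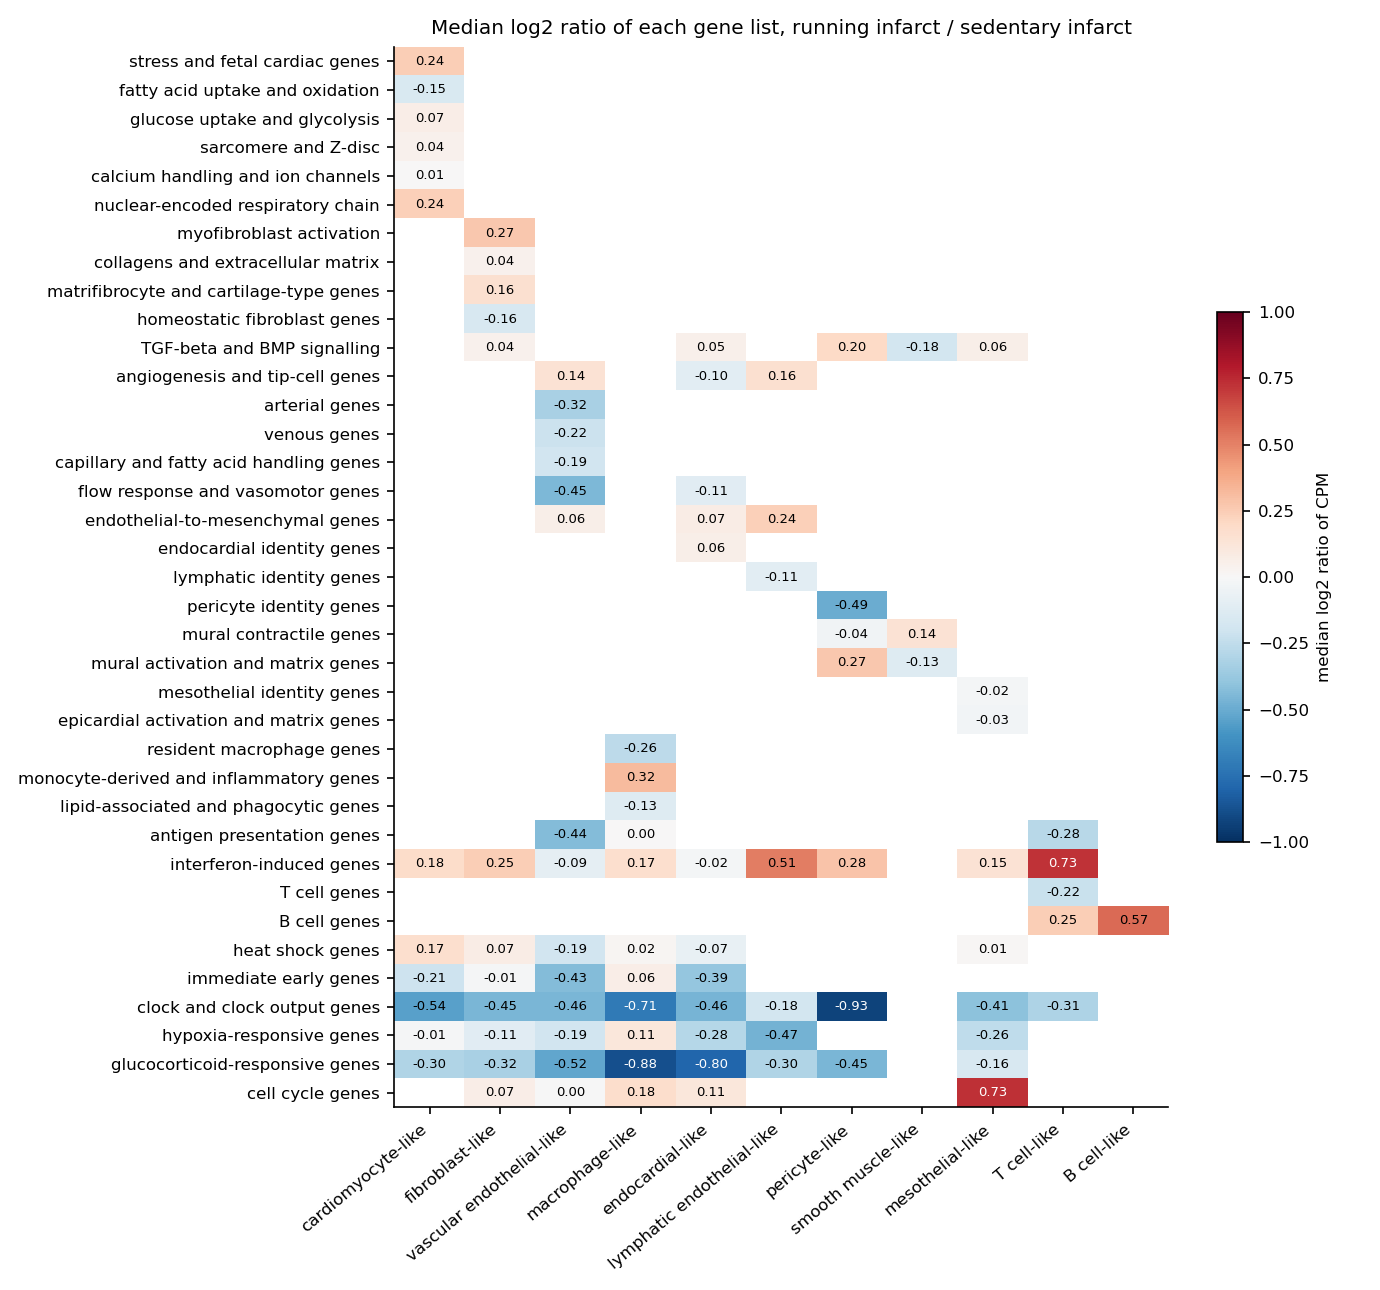
Median log2 ratio of CPM, running infarct over sedentary infarct, of each gene list (rows) in each cell class (columns) where at least 3 of its genes were measured; blank squares were not looked at or held too few genes. The clock row is negative in all 9 classes with a value, from -0.18 to -0.93, and the glucocorticoid row in all 8, from -0.16 to -0.88.

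Genes of the circadian clock differed between the infarct libraries in many classes at once. The clock is a feedback loop in which the activators BMAL1 (Arntl), CLOCK and NPAS2 bind E-boxes and switch on period, cryptochrome and Rev-erb genes, which in turn repress them, while DBP, TEF and HLF act through D-boxes on output genes. Arntl (ENSMUSG00000055116) stood at 46.8, 11.8, 45.1 and 131 CPM in fibroblast-like nuclei, a ratio of 2.91 (2.47 to 3.44). In cardiomyocyte-like nuclei it stood at 32.7, 10.8, 11 and 29.7 CPM, a ratio of 2.69 (1.77 to 4.15). Vascular endothelial-like nuclei gave 62.4, 11.1, 30.7 and 68.1 CPM (2.22, 1.44 to 3.54). Endocardial-like nuclei gave 120, 26.1, 17.5 and 50.6 CPM (2.89, 1.73 to 5.10). Arntl was therefore called higher in 4 of the 5 classes that measured it, the exception being macrophage-like nuclei at 1.20 (0.771 to 1.9), and it was lowest in the running library, or in the sedentary-infarct library for the endocardial class. Npas2 in fibroblast-like nuclei had a ratio of 2.92 (2.41 to 3.56). Without infarct the direction was the opposite: Arntl was lower in the running than in the sedentary library in those 4 classes. In fibroblast-like nuclei the running-to-sedentary ratios without infarct were 0.251 for Arntl and 0.372 for Npas2.

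Genes on the other arm of the loop were lower in many classes. Dbp was called lower in 5 of 5 classes. It stood at 60.5, 113, 101 and 40.6 CPM in fibroblast-like nuclei, a ratio of 0.402 (0.333 to 0.482), and at 21.5, 58.1, 86.7 and 33.0 CPM in cardiomyocyte-like nuclei, a ratio of 0.381 (0.289 to 0.497). Its ratio was 0.324 (0.215 to 0.480) in vascular endothelial-like, 0.418 (0.303 to 0.573) in endocardial-like and 0.551 (0.377 to 0.807) in macrophage-like nuclei. Without infarct the running-to-sedentary ratio of Dbp went the opposite way, at 1.87 in fibroblast-like, 2.71 in cardiomyocyte-like and 3.34 in vascular endothelial-like nuclei. Per3 was lower in 6 of 7 classes, Tef in 5 of 7, Per1 in 5 of 6 and Nr1d2 (Rev-erb beta) in 4 of 9. In pericyte-like nuclei Per2 and Hlf had ratios of 0.436 (0.287 to 0.649) and 0.437 (0.293 to 0.641), and 5 of 7 clock genes were lower. In mesothelial-like nuclei Per1 had a ratio of 0.445 (0.309 to 0.635) and was the only one of 9 clock genes called. Ciart, a clock repressor, stood at 9.42, 26.5, 41.5 and 13.4 CPM in cardiomyocyte-like nuclei, a ratio of 0.323 (0.208 to 0.487). Arntl and Dbp thus lay on opposite sides of even in each of the 4 classes where Arntl was called. In fibroblast-like nuclei 3 clock genes were higher and 8 lower of 16. The labels give no time of day for the collection of any heart, so a difference in that time and running cannot be told apart.

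The promoters of 3 clock genes are shown because their E-boxes (CACGTG) and D-boxes (TTATGTAA) are the elements the loop works through, set in capitals; each is 250 bases before to 50 after the RefSeq start in build GRCm38.p6, 5′ to 3′ on the gene's strand, and was searched on both strands. The first lies at chr4:151044616-151044915 on the minus strand, the second at chr3:95882179-95882478 on the minus strand and the third, 1 of 2 entries for its gene, at chr15:81802423-81802722 on the plus strand.
Per3: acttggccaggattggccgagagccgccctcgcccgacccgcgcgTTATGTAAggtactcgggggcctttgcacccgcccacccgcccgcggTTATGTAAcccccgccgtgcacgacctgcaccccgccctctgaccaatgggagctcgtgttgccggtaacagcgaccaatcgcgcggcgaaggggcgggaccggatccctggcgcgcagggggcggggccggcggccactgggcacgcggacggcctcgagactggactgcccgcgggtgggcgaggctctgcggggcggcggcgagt
Ciart: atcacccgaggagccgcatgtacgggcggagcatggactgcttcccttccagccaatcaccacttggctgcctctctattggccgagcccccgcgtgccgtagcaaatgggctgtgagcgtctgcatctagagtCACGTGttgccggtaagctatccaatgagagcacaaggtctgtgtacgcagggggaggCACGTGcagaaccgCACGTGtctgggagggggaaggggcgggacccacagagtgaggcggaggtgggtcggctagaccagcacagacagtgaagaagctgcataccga
Tef: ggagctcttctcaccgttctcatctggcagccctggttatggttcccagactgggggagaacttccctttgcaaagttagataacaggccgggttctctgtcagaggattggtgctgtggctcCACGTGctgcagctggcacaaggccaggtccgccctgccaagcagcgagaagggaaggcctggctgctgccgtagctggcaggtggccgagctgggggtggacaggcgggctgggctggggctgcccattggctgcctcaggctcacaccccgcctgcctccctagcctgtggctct
Per3 held 2 D-boxes, Ciart 3 E-boxes and Tef 1 E-box. Of the 19 clock genes 16 had an entry, and an E-box was found in 5 of them (Bhlhe41, Ciart, Cry1, Per1 and Tef), while 7.15% of all 32851 promoters of that length held one. The D-box was found in 1 of the 16 and in 0.938% of all promoters. A match describes these letters only.

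Several glucocorticoid-responsive genes were lower alongside. Their median log2 ratio was -0.88 in macrophage-like nuclei, with 4 of 6 lower, -0.80 in endocardial-like nuclei, with 5 of 8 lower, and -0.52 in vascular endothelial-like nuclei, with 4 of 8 lower, and none of these genes was higher in any class. Zbtb16, a zinc-finger transcription factor, was lower in 6 of 9 classes. It stood at 143, 226, 290 and 107 CPM in lymphatic-like nuclei, a ratio of 0.368 (0.260 to 0.518), and at 215, 334, 400 and 194 CPM in vascular endothelial-like nuclei, a ratio of 0.484 (0.412 to 0.569). In both it was highest in the sedentary-infarct library. Fkbp5, a chaperone of the glucocorticoid receptor, stood at 303, 369, 412 and 217 CPM in macrophage-like nuclei, a ratio of 0.526 (0.451 to 0.614), and its endocardial ratio was 0.445 (0.346 to 0.572). Tsc22d3 (GILZ), which mediates anti-inflammatory effects of glucocorticoids, was lower in 4 of 6 classes, with ratios of 0.509 (0.393 to 0.657) in vascular endothelial-like and 0.533 (0.454 to 0.624) in fibroblast-like nuclei. Klf9 in macrophage-like nuclei had a ratio of 0.407 (0.296 to 0.559). Per1 belongs to both lists, so the lists are not independent.

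Few genes differed in the same direction in 4 or more classes. Of 4181 genes measured in 5 or more of the 9 classes with at least 30 nuclei in both infarct libraries, 16 were higher and 15 lower in at least 4, and 103 were higher in 1 class and lower in another. Kif26b was higher in 5 of 6 classes, with ratios from 1.21 in mesothelial-like to 5.56 in pericyte-like nuclei. Comp was higher in 4 of 5 classes, Tmem108 in 4 of 7 and Eln in 4 of 9, and Eln was lower in vascular endothelial-like nuclei. Bmp6, a growth factor of endothelium, was higher in 4 of 9 classes, with an endocardial ratio of 1.5 (1.44 to 1.57), and lower in lymphatic-like nuclei at 0.511. Myl2 was lower in 7 of 9 classes but stood at 0.973 in cardiomyocyte-like nuclei, where it belongs, and Fth1 (ferritin heavy chain) was lower in 5 of 9.

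**Figure D5:**
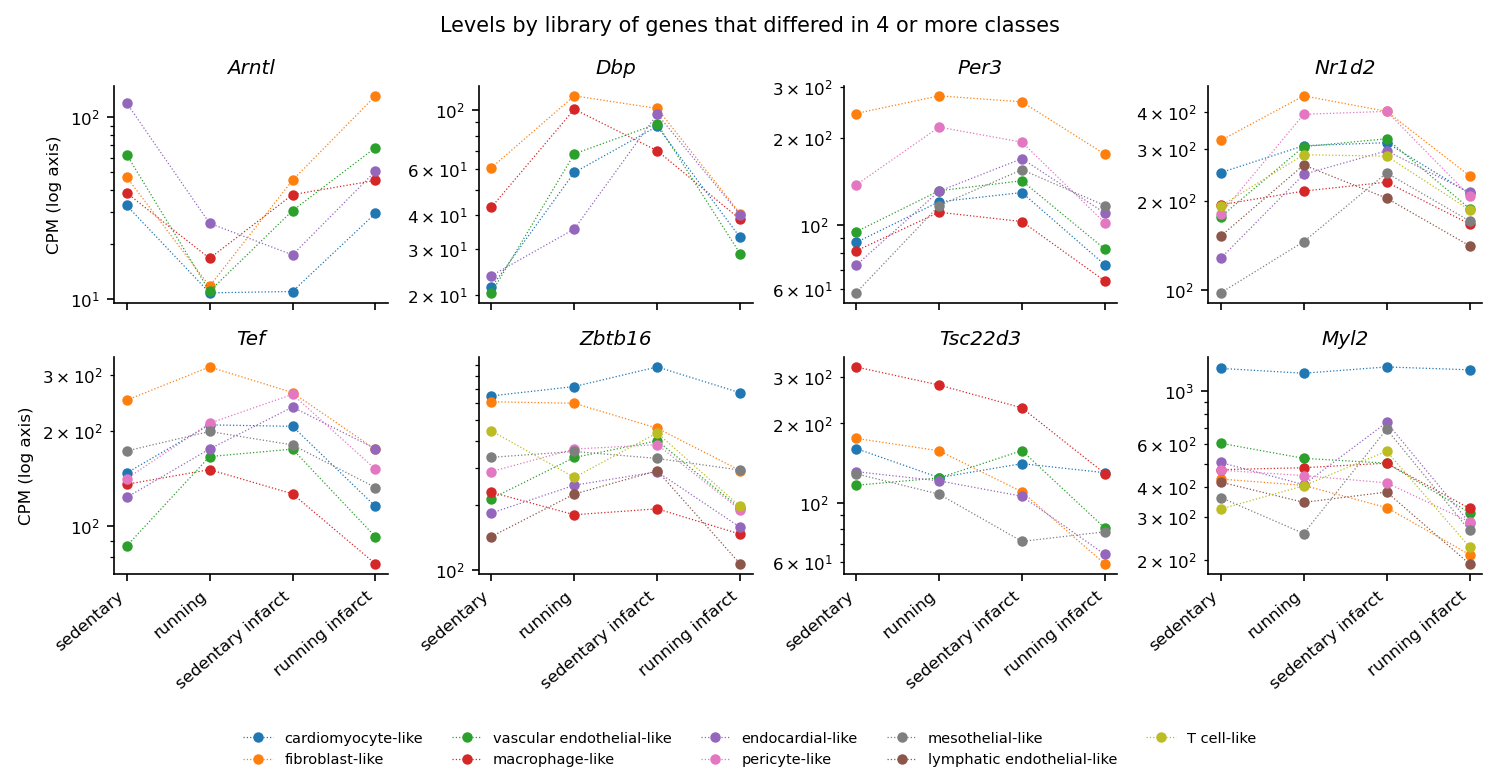
CPM (log axis, scaled per panel) of 8 genes in each of the 4 libraries (order as on the axis), 1 point for each library and cell class that measured the gene; dotted lines only join the points of a class. Arntl lies higher in the running-infarct than in the sedentary-infarct library in all 5 classes, by 1.20 to 2.91 times, and Dbp lies lower in all 5.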

How the data were processed

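Single-nucleus RNA was measured in 4 libraries, 1 per group. The authors deposited unnormalised UMI counts in a gene-by-barcode matrix for each library. Cell Ranger 7.1 and build GRCm39 are given in the submitters' processing notes, and further counting settings are not given in the sources used here. Barcodes under 300 genes or over 20% mitochondrial UMIs were dropped, and the top Scrublet scores were removed at 0.8% per 1000 barcodes (83 and 193 in the infarct libraries), since its automatic calls marked 0. All 4 libraries were clustered together in scanpy 1.11.5: 10000 counts per nucleus, log scale, 3000 variable genes, 40 components, 15 neighbours, Leiden resolution 1. A cluster was named for the type whose markers stood highest over the median of all clusters (mean log2 excess of 0.7 or more, with 3 or more markers in 10% of nuclei), a threshold set after the Col12a1-led cluster was seen just under 1. Marker genes helped draw the clusters.

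CPM, over UMIs without the 37 mitochondrial genes, carry exact Poisson intervals, ratios conditional binomial and shares Clopper-Pearson ones (scipy 1.17.1). With 1 library per group no p-value was computed. Named genes were, per class, the 5 (or 4 in smaller classes) with the interval farthest from even on each side, with 100 or more UMIs, the same direction in Y-positive and Y-negative nuclei, at most 5 times the CPM in another class and at most 50% of UMIs in 10 nuclei of the library with the higher level; up to 4 per gene list beyond 1.5-fold, or else 2; and a set of standard markers. The members and lists were chosen with earlier results of these data known. The ratio intervals and 1.5-fold calls were tested on simulated counts for cardiomyocyte-like, pericyte-like and endocardial-like nuclei. Filtering, clustering, naming, shares and thinning were not simulated. Alternatives covered Y-linked UMIs, depth, mitochondrial limit, doublets, scaling and clustering.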

Additional observations from a re-analysis of the deposited data

How the results depend on the processing

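Each group is 1 pooled library, so sampling of hearts cannot be assessed. No paired analysis was possible because each group has 1 library. Of 157 called named genes, 157 kept their direction under median-of-ratios scaling (157 still past 1.5-fold) and among nuclei with at least 2000 UMIs (152). In Y-negative nuclei 156 did (144 past), in Y-positive nuclei 128 of 132 (114 past), with at most 5% mitochondrial UMIs 149 of 151 (125 past), and with every nucleus weighed the same 156 (146 past). The genes with the farthest intervals were chosen for the same direction in both Y sets, so for them that direction was fixed beforehand. Median-of-ratios scaling shifts each class by its median log2 ratio, at most 0.14 in size, which cannot turn a called gene. Depth limits the small classes most, since few genes reach 100 UMIs there. For each value that follows, the cause was not tested.

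In Y-positive nuclei the share ratios, running infarct over sedentary infarct, were 0.401 for cardiomyocyte-like, 1.75 for endocardial-like, 2.01 for lymphatic, 1.61 for mesothelial-like and 2.34 for T cell-like nuclei. There 822 genes were called higher and 700 lower over all classes, against 1459 and 1554 in all nuclei, and log2 ratios turned to -0.26 for Col8a1 in cardiomyocyte-like, -0.49 for Fn1 and 0.39 for Col8a1 in macrophage-like and -0.0103 for Mrc1 in lymphatic-like nuclei. Y-negative nuclei gave 0.862 for cardiomyocyte-like nuclei and a Klf4 log2 ratio of -0.16 in mesothelial-like nuclei. With at least 2000 UMIs the share ratios were 0.655 (cardiomyocyte-like), 1.59 (lymphatic) and 0.500 (pericyte-like), and with at least 800 genes 0.598 (cardiomyocyte-like), 0.433 (pericyte-like) and 2.74 (cycling), with Fn1 at -0.42 in T cell-like nuclei. At most 5% mitochondrial UMIs gave 0.526 (fibroblast-like), 1.61 (endocardial-like), 0.258 (pericyte-like), 1.61 (mesothelial-like) and 4.13 (cycling), and in T cell-like nuclei log2 ratios of 0.27 for Myh6, -0.71 for Fn1 and 0.29 for the median of abundant cardiomyocyte transcripts. Weighing every nucleus the same called 2414 genes higher and 2504 lower, among the same measured genes that gave 1459 and 1554. It put Ttn in pericyte-like nuclei at 0.22. The vascular endothelial-like ratio was 1.45 with low-depth clusters added, 1.44 with doublets kept and 1.47 at resolution 0.5. The fibroblast-like ratio was 0.554 at resolution 0.5, 0.553 at resolution 2 and 0.567 with only the infarct libraries clustered. Resolution 2 put Ttn in pericyte-like nuclei at 0.17, and clustering only the infarct libraries put Diaph3 in mesothelial-like nuclei at -0.0103. Pericyte-like and smooth muscle-like nuclei have no value with doublets kept, at resolution 0.5 or with only the infarct libraries clustered, since they merged there, and cycling nuclei none with doublets kept or at resolution 0.5 or 2.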
